A study of Mus musculus with 12 samples.

Results

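The 10 genes described here make and load MHC class II molecules. They were taken from the count table by symbol: the class II chains H2-Aa, H2-Ab1 and H2-Eb1, the invariant chain Cd74, the peptide editors H2-DMa, H2-DMb1 and H2-DMb2, their inhibitors H2-Oa and H2-Ob, and the transactivator Ciita. They are 10 of 24956 gene symbols in the table, and 9 of them are among the 12856 genes that had enough counts to be tested. Each was compared over 12 mouse tumours of the line PDA.69, a ductal adenocarcinoma of the pancreas derived from KPC mice (a genetic model of this cancer) and labelled as T cell low. Of these, 6 grew in Alb-Cre+/+ STAT3f/f hosts, called Alb-Cre Stat3f/f here, in which Cre driven by the albumin promoter removes the floxed gene for the transcription factor Stat3 from hepatocytes. The other 6 grew in WT hosts. All 12 tumours derive from the same tumour line, which is not deleted for Stat3 by this design, and the sources used here do not give host strain, age or sex. RNA came from fixed, paraffin-embedded tissue and was read at the 3' ends of transcripts. Whether every tumour had its own host mouse is not labelled, so the p-values reflect only how these samples vary, which may in part be technical.

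MHC class II molecules are pairs of an alpha and a beta chain that show peptides from the endosome to CD4 T cells. The invariant chain Cd74 holds the new pair and leaves the fragment CLIP in its groove. H2-DM, a pair of H2-DMa with H2-DMb1 or H2-DMb2, removes CLIP, and H2-O, a pair of H2-Oa and H2-Ob best known from B cells, inhibits H2-DM. Dendritic cells, macrophages and B cells are the classical users of the pathway. Ciita is the coactivator that switches these genes on, at promoters that carry an X box, bound by the RFX complex, and a Y box, bound by NF-Y, and interferon gamma induces Ciita.

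Promoter stretches of 5 members are printed because they hold letters that match cores of the X box and Y box. For H2-DMb1 and H2-Aa the first core is a relaxed form, as given below. Whether Ciita acts through these letters was not tested. Of the 10 members, 7 had a promoter in the RefSeq table (GRCm38.p6, 250 bases before to 50 after each start): H2-Oa, H2-DMa with 2 starts, H2-DMb2, H2-DMb1, H2-Ob, H2-Aa and H2-Eb1. The capitals mark letters that match a core of the X box and then the Y box core, on the transcribed strand. The pair is shown with 12 flanking bases on each side. The H2-Oa stretch is chr17:34092290-34092352 on the plus strand, that of H2-Ob chr17:34238805-34238864 (plus), that of H2-Eb1 chr17:34305763-34305824 (plus), that of H2-DMb1 chr17:34153084-34153146 (plus) and that of H2-Aa chr17:34287855-34287917 (minus).
H2-Oa: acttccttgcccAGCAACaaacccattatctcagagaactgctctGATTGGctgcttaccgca
H2-Ob: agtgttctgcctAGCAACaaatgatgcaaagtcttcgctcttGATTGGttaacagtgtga
H2-Eb1: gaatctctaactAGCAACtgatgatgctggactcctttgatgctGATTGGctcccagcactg
H2-DMb1: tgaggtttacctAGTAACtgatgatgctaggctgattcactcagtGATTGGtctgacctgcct
H2-Aa: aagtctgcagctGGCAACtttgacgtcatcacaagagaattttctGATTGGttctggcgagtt

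H2-Oa, H2-Ob and H2-Eb1 carried AGCAAC followed by GATTGG in the same orientation, the starts 33, 30 and 32 bases apart. The search covered both strands and allowed starts 10 to 40 bases apart. Of 32851 promoters in the table, 57 (0.174%) held that pair, 4858 (14.8%) held AGCAAC anywhere and 5292 (16.1%) held GATTGG, whose reverse complement CCAATC includes the CCAAT box letters. With the first core relaxed to NGNAAC, a choice made after the H2-Aa and H2-DMb1 letters had been seen, those 2 genes were added, both at 33 bases, and 566 of all promoters (1.72%) held the pair. GATTGG itself lay in at least 1 promoter of all 7 members. It was in the promoter of only 1 of the 2 H2-DMa starts.

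The libraries held 5691707 to 8085609 counts. The tumours differed in normal exocrine pancreas: the 15 acinar genes took 20.0% of counts on average in Alb-Cre Stat3f/f tumours and 5.58% in WT tumours (exact permutation p = 0.0346, two-sided, n = 6 each), with over 15% in Alb-Cre Stat3f/f 1, 2, 3 and 4 and in WT 5. The TMM factors that scale the libraries differed too, at 0.885 on average in Alb-Cre Stat3f/f tumours and 1.18 in WT tumours (exact permutation p = 0.0325). Levels are therefore given in TMM-scaled CPM, counts scaled to a common library size. Their part in the results below was not tested beyond the values given with them.

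Class II genes were higher on average in Alb-Cre Stat3f/f tumours. All 9 tested members had a positive log2 fold change, between 0.52 and 1.27, with a median of 0.78, against a median of -0.000773 over all genes tested, of which 6422 (50.0%) were positive. Of them 1 passed the edgeR quasi-likelihood test with Benjamini-Hochberg adjustment over all genes at 0.05: H2-DMa, at 2.08-fold. That is 1 of 9 called higher and 0 lower, beside 287 genes (2.23%) called higher and 96 (0.747%) called lower over the whole table, 383 (2.98%) in either direction. With library totals in place of TMM the balance over the whole table turned round, with 32 genes called higher and 133 lower. At an unadjusted p under 0.05, 8 of the 9 were higher, beside 1483 of all genes (11.5%). Most members varied together over the WT tumours, and with lower r over the Alb-Cre Stat3f/f tumours, as given below. The 9 are therefore not separate observations. They were also chosen with earlier results of these data known. H2-Oa passed the low-count filter through 5 Alb-Cre Stat3f/f and 2 WT tumours, so its place among the 9 leans on the group where it is higher; the other 8 passed in at least 5 tumours of each genotype. In bulk RNA, more cells of a type and more RNA per cell cannot be told apart. 

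The genes were abundant. Summed over the 10 members, the level was 3551 to 4958 CPM in Alb-Cre Stat3f/f tumours and 1399.9 to 3592 CPM in WT tumours, with WT 2 above the lowest Alb-Cre Stat3f/f tumour. In 3' counts, into which transcript length does not enter, H2-Eb1 took 24.8% of the members' counts, H2-Aa 23.3%, Cd74 22.8% and H2-Ab1 21.4%, as means over 12 tumours. H2-DMb1 took 4.00%, H2-DMa 3.17%, Ciita 0.370%, H2-Ob 0.124% and H2-Oa 0.0742%. H2-Eb1, Cd74, H2-Ab1 and H2-Aa ranked 103 to 125 by mean level among the tested genes, and Ciita ranked 8166. Ciita was thus measured from 33 to 139 counts per tumour, against 2361 to 8742 counts for H2-Ab1.

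**Figure D1:**
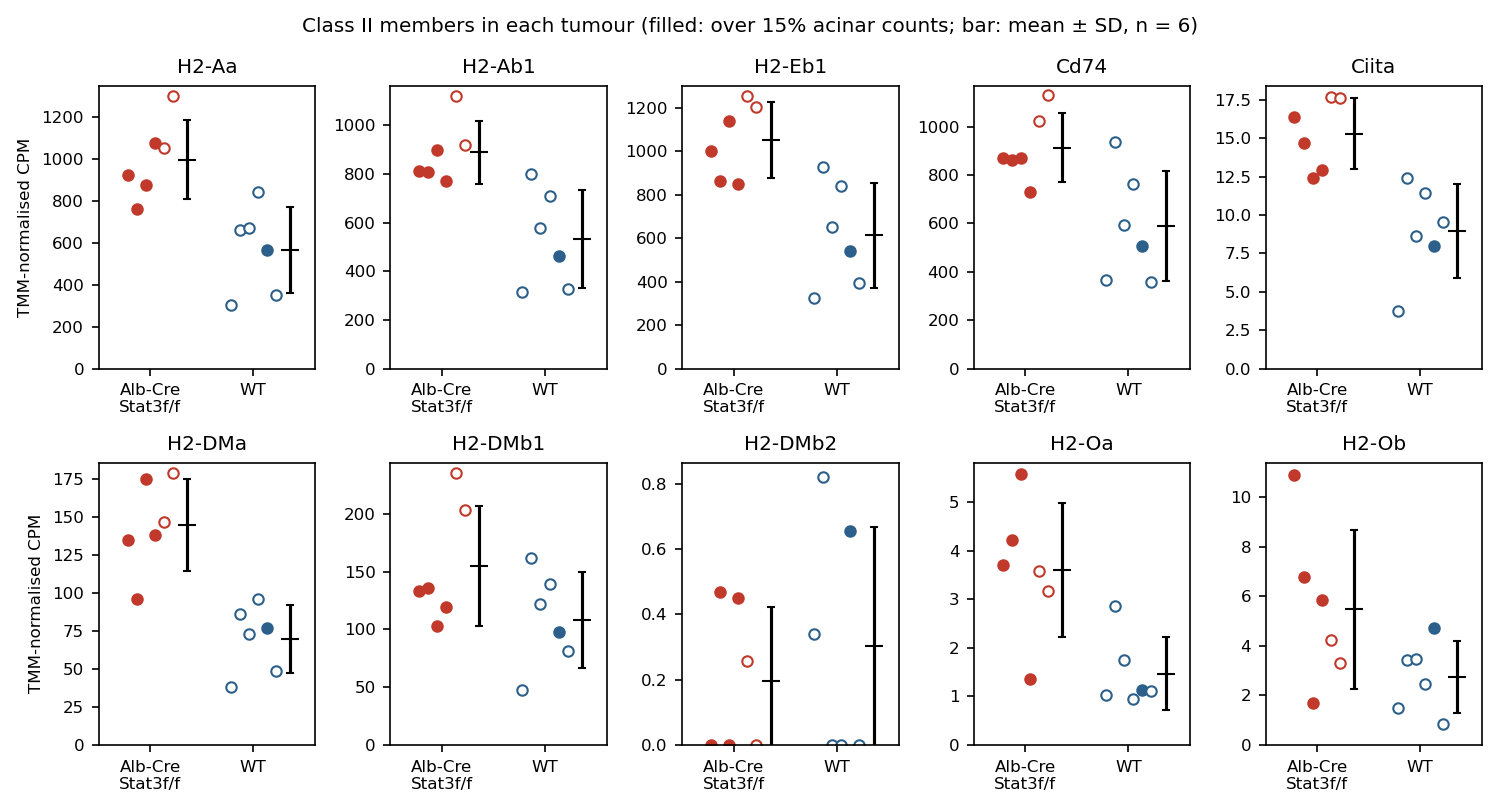
TMM-scaled CPM (linear axis from 0) of the 10 members in each tumour, Alb-Cre Stat3f/f left and WT right in each panel, with filled points for the tumours over 15% acinar counts and bars for the mean ± SD (n = 6, cut off at 0 for H2-DMb2). The WT tumours spread more widely for the chains, with H2-Ab1 between 769.7 and 1121 CPM in Alb-Cre Stat3f/f tumours and between 315 and 801 CPM in WT tumours.

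The chains of the presenting molecules come first. H2-Aa, the alpha chain of I-A (chromosome 17, 34282744 to 34287823, minus strand, GRCm38), had a lowest, median and highest level of 758, 986 and 1296 CPM in Alb-Cre Stat3f/f tumours, against 301, 612 and 842 CPM in WT tumours. All Alb-Cre Stat3f/f tumours but replicate 2 lay above every WT tumour. The means were 995 ± 188 and 565 ± 206 CPM (SD, n = 6 each), a log2 fold change of 0.82 ± 0.23 (SE) with an edgeR quasi-likelihood adjusted p of 0.0691 (Benjamini-Hochberg over all genes), so the difference did not pass.

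H2-Ab1, the beta chain of I-A (chromosome 17, 34257689 to 34269419, plus strand), had 769.7, 854 and 1121 CPM as lowest, median and highest in Alb-Cre Stat3f/f tumours, and 315, 521 and 801 CPM in WT tumours. Only Alb-Cre Stat3f/f 4 fell inside the WT range, below WT 2. The log2 fold change was 0.74 ± 0.21, with an edgeR Benjamini-Hochberg adjusted p of 0.0765. H2-Eb1, the beta chain of I-E (chromosome 17, 34305867 to 34316674, plus strand), had 848, 1071 and 1255 CPM in Alb-Cre Stat3f/f tumours, and 323, 596 and 927 CPM in WT tumours. Here 4 of 6 Alb-Cre Stat3f/f tumours were above every WT tumour, and replicates 2 and 4 were inside the WT range. Its log2 fold change was 0.78 ± 0.23 (edgeR Benjamini-Hochberg adjusted p = 0.0885). The gene overlaps the antisense gene Gm20513, and the sources used here do not give the strand setting of the counting.

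Of the further class II loci, H2-Eb2, an E beta gene of unclear use in mice, had 23 counts in Alb-Cre Stat3f/f tumours and 26 in WT tumours, 1.10 times as many per scaled library (exact binomial 95% bounds 0.599 and 2.00, for counting error alone). The pseudogene H2-Ea-ps of the E alpha chain had 0 counts in all 12 tumours, and 3 counts over all of them would be 0.0362 CPM. The deposited counts hold no gene under the symbol H2-Ea. The I-E beta chain was thus counted at the level of the I-A chains while no E alpha count was found under the pseudogene's name.

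Cd74, the invariant chain (chromosome 18, 60803848 to 60812652, plus strand), had 728, 871 and 1129.8 CPM as lowest, median and highest in Alb-Cre Stat3f/f tumours, and 358, 549 and 936 CPM in WT tumours. It overlapped most among these 4 abundant genes: only Alb-Cre Stat3f/f 5 and 6 exceeded WT 2, the highest WT tumour. The log2 fold change was 0.64 ± 0.22, with an edgeR quasi-likelihood adjusted p (Benjamini-Hochberg) of 0.125. The chains and Cd74 had a coefficient of variation of 14.4 to 18.9% over the Alb-Cre Stat3f/f tumours and of 36.4 to 39.2% over the WT tumours. WT 2 and 4 were the 2 highest and WT 1 and 6 the 2 lowest WT tumours for all 4 genes apart from H2-Aa, where WT 3 came above WT 2.

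Among the peptide editors, H2-DMa rose. This alpha chain of H2-DM (chromosome 17, 34119541 to 34139101, plus strand) had 96.3, 143 and 179 CPM as lowest, median and highest in Alb-Cre Stat3f/f tumours, and 37.9, 75.4 and 96.1 CPM in WT tumours. Every Alb-Cre Stat3f/f tumour lay above every WT tumour, though Alb-Cre Stat3f/f 2 exceeded WT 4 by only the difference between 96.3 and 96.1 CPM. Among all genes tested, 176 (1.37%) were separated in this way, and H2-DMa was the only 1 of the 9 members. The means were 145 ± 30.4 and 69.9 ± 22.3 CPM (SD, n = 6 each), a log2 fold change of 1.06 ± 0.22 (edgeR quasi-likelihood, Benjamini-Hochberg adjusted p = 0.0191). The call was lost without the 5 acinar-rich tumours (log2 fold change 1.26, edgeR Benjamini-Hochberg adjusted p = 0.229, 2 Alb-Cre Stat3f/f against 5 WT tumours), with the acinar score as a covariate (1.08, adjusted p = 0.0694), with the replicate number as a block (1.10, adjusted p = 0.0583) and with library totals in place of TMM (0.66, adjusted p = 0.107). The annotated gene overlaps Brd2 on the other strand, whose log2 fold change of 0.02 ± 0.11 (edgeR Benjamini-Hochberg adjusted p = 0.954) had no stable sign: it was -0.40 with library totals and -0.02 without the acinar-rich tumours.

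H2-DMb1, a beta chain of H2-DM (chromosome 17, 34153072 to 34160230, plus strand), did not pass. It had 103, 135 and 235 CPM as lowest, median and highest in Alb-Cre Stat3f/f tumours, and 47.7, 110.2 and 162 CPM in WT tumours. The ranges overlapped broadly, and Alb-Cre Stat3f/f 5 and 6, the 2 with the least acinar counts of their genotype, were the only ones above every WT tumour. The log2 fold change of 0.52 ± 0.30 was the smallest of the 9 (edgeR Benjamini-Hochberg adjusted p = 0.380). H2-DMb2, the other beta chain (chromosome 17, 34143307 to 34151555, plus strand), had too few counts for the test: 7 in the 6 Alb-Cre Stat3f/f tumours and 13 in the 6 WT tumours, 0 to 6 per tumour, which is 0.669 times as many per scaled library (exact binomial 95% bounds 0.226 and 1.80, for counting error alone). H2-DMb1 and H2-DMb2 are close paralogs, and the sources used here do not say how reads shared by both were counted.

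Since H2-DM is a pair, its chains were also set against each other within each tumour, a ratio that library scaling does not touch. There were 1.04 H2-DMb1 counts per H2-DMa count (geometric mean) in Alb-Cre Stat3f/f tumours and 1.52 in WT tumours. On the log2 scale the ratio ran from -0.77 to 0.67 in Alb-Cre Stat3f/f tumours and from 0.33 to 0.92 in WT tumours, with 4 Alb-Cre Stat3f/f tumours below every WT tumour. The difference of -0.54 ± 0.23 (SE) had an exact two-sided permutation p of 0.0346 and a Benjamini-Hochberg adjusted p of 0.465 over the 15 ratios computed, so it did not hold after correction.

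The H2-O chains were rare. H2-Oa (chromosome 17, 34092340 to 34095234, plus strand, with the antisense gene BC051537 over it) had 127 counts in Alb-Cre Stat3f/f tumours and 67 in WT tumours. Its level was 1.35, 3.64 and 5.57 CPM as lowest, median and highest in Alb-Cre Stat3f/f tumours, and 0.947, 1.13 and 2.87 CPM in WT tumours, so that every Alb-Cre Stat3f/f tumour but replicate 4 was above every WT tumour. The log2 fold change of 1.27 ± 0.40 was the largest of the 9 and did not pass (edgeR Benjamini-Hochberg adjusted p = 0.0840).

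H2-Ob (chromosome 17, 34238903 to 34254414, plus strand) had 1.71, 5.04 and 10.9 CPM as lowest, median and highest in Alb-Cre Stat3f/f tumours, and 0.832, 2.95 and 4.74 CPM in WT tumours. Alb-Cre Stat3f/f 1, 2 and 4 stood above every WT tumour, and replicate 3 was below 4 of the 6 WT tumours. The log2 fold change was 1.00 ± 0.43 (edgeR Benjamini-Hochberg adjusted p = 0.200). The summed level of 8 B cell markers was highest in those same 3 tumours, at 65.0, 42.3 and 65.9 CPM in Alb-Cre Stat3f/f 1, 2 and 4, against 5.32 to 19.7 CPM in the other Alb-Cre Stat3f/f tumours. In WT tumours it was 5.56 to 23.1 CPM, with WT 5 the highest both for these markers and for H2-Ob. H2-Oa did not follow the B cell markers in this way: Alb-Cre Stat3f/f 4, with the highest B cell sum, had the lowest H2-Oa of its genotype, at 1.35 CPM, and replicate 3, at 18.6 CPM for the B cell markers, had the highest, at 5.57 CPM. The 4 tumours with the high H2-Ob values were also among the 5 acinar-rich ones. Among the 8 B cell markers, the 5 with enough counts were all positive and 0 were called; Cd79a, a part of the B cell receptor, was at 0 in all 12 tumours. Their part in the H2-Ob difference was not tested.

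Ciita (chromosome 16, 10480059 to 10528418, plus strand) had 12.4, 15.6 and 17.7 CPM as lowest, median and highest in Alb-Cre Stat3f/f tumours, and 3.75, 9.09 and 12.4 CPM in WT tumours. Alb-Cre Stat3f/f 3 lay just under WT 2, and the other 5 were above every WT tumour. The means were 15.3 ± 2.30 and 8.96 ± 3.05 CPM (SD, n = 6 each), a log2 fold change of 0.78 ± 0.23 with an edgeR quasi-likelihood adjusted p of 0.0648 (Benjamini-Hochberg). With the acinar score as a covariate Ciita was the 1 member called (log2 fold change 0.96, edgeR Benjamini-Hochberg adjusted p = 0.0478). The gene overlaps Dexi on the other strand.

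WT 2 bore most on these calls. Without it, 6 members were called higher: H2-DMa and, by edgeR with Benjamini-Hochberg adjustment, H2-Ab1 (adjusted p = 0.0264), Cd74 (0.0269), H2-Eb1 (0.0405), H2-Oa (0.0480) and Ciita (0.0484). Without WT 4, H2-Aa was called beside H2-DMa (adjusted p = 0.0317), and without Alb-Cre Stat3f/f 4, H2-Oa was (0.0362). DESeq2 called 7 members higher, all but H2-Ob (Benjamini-Hochberg adjusted p = 0.142) and H2-DMb1 (0.347). It also called 618 genes higher over the whole table, where edgeR called 287. The 9 members stayed positive under every alternative in which they were tested. With library totals in place of TMM they lay between 0.20 and 0.81, while the median of all genes moved to -0.41.

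**Figure D2:**
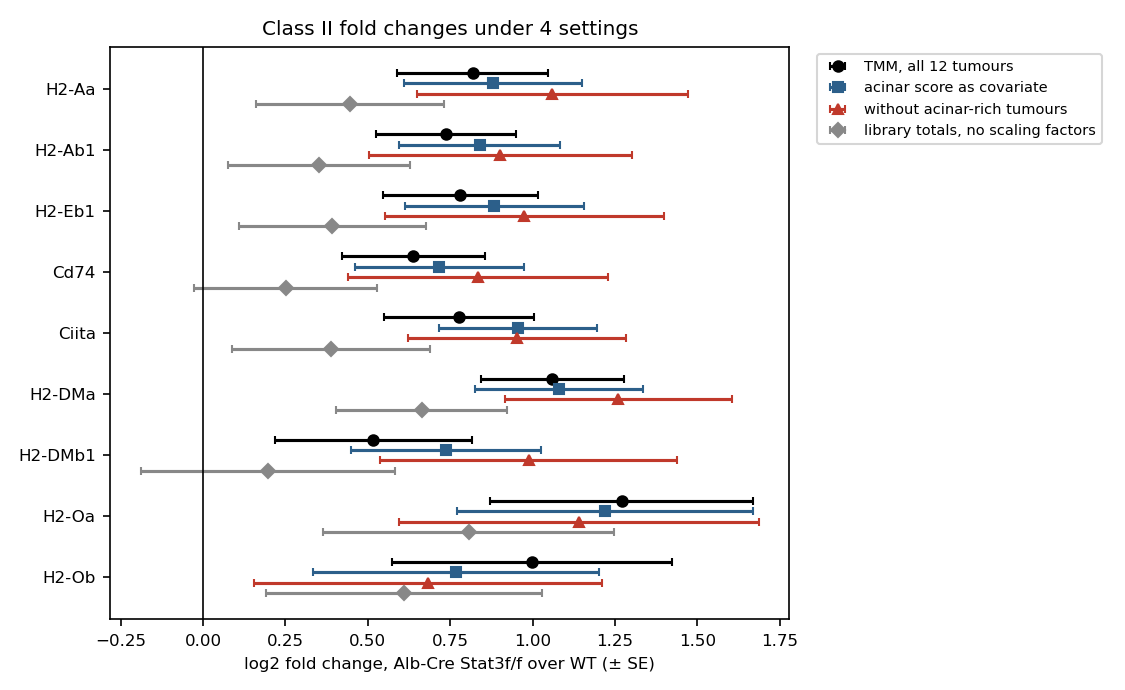
Log2 fold change, Alb-Cre Stat3f/f over WT, of each of the 9 tested members with its SE under 4 settings: all 12 tumours with TMM, an added covariate for acinar score, the acinar-rich tumours removed, and library totals in place of TMM. Every point lies above 0, and the library total values, from 0.20 to 0.81, lie lowest for each member.

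The proportions of the members to each other did not differ past the test. For each H2-Ab1 count there were 1.11 H2-Aa counts in Alb-Cre Stat3f/f tumours and 1.06 in WT tumours, and 1.18 H2-Eb1 counts in Alb-Cre Stat3f/f tumours and 1.14 in WT tumours (geometric means). The Ciita count per H2-Ab1 count was 0.0173 in Alb-Cre Stat3f/f tumours and 0.0169 in WT tumours, a log2 difference of 0.03 ± 0.19 (SE; exact permutation p = 0.883, adjusted p = 0.946). The Cd74 to H2-Ab1 ratio differed by -0.10 ± 0.07 on the log2 scale (exact permutation p = 0.180, adjusted p = 0.465), and that of H2-DMa to H2-Ab1 by 0.28 ± 0.15 (exact permutation p = 0.102, adjusted p = 0.465). Of the 15 ratios 0 passed 0.05 after Benjamini-Hochberg adjustment; before it 1 did, the H2-DM ratio above. A p above the threshold does not show that the ratios were alike, and the SE of 0.06 to 0.19 for the ratios named here, on the log2 scale, is the precision the 12 tumours gave.

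**Figure D3:**
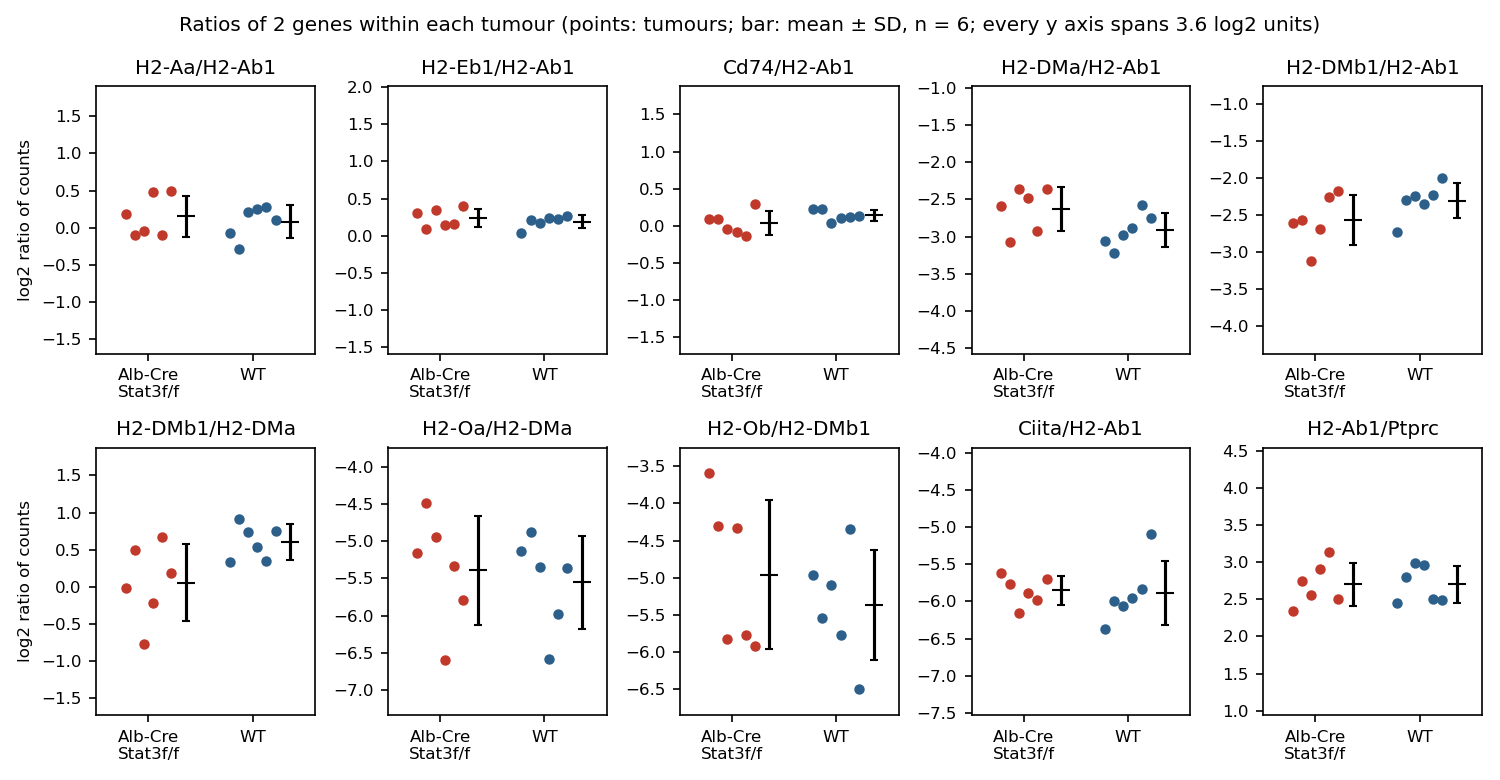
Log2 ratio of the counts of 2 genes within each tumour for 10 of the 15 ratios, Alb-Cre Stat3f/f left and WT right, points for tumours and bars for the mean ± SD (n = 6). For H2-DMb1 to H2-DMa 4 Alb-Cre Stat3f/f points lie below every WT point, while for H2-Ab1 to Ptprc both means are 2.70.

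The class II chains were also set against genes of the cells that use them. There were 6.50 H2-Ab1 counts per count of Ptprc, the leukocyte surface protein CD45, in both genotypes, with a log2 difference of 0.00 ± 0.16 (SE; exact permutation p = 1). The log2 ratio of H2-Ab1 to C1qb, a complement gene of macrophages, was higher by 0.21 ± 0.15 in Alb-Cre Stat3f/f tumours (exact permutation p = 0.186, adjusted p = 0.465). To Irf8, a factor of dendritic cells, it differed by 0.03 ± 0.16, and to H2-K1, a class I heavy chain, by -0.03 ± 0.16 (exact permutation p = 0.872 and 0.838). The differences to Ptprc, Irf8 and H2-K1 had no stable sign when single tumours were left out.

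Most lists of leukocyte markers moved in the same direction as the members, and the monocyte list was mixed. Over all genes tested, 50.0% were positive, 2.23% were called higher and 0.747% were called lower. Over the pan-leukocyte list (5 genes) 5 were positive and 4 called higher, at 330.2 to 474 CPM summed in Alb-Cre Stat3f/f tumours and 189.9 to 305 CPM in WT tumours, ranges that did not overlap. Of 9 macrophage markers 9 were positive and 6 called higher, with sums of 1566 to 2431 CPM in Alb-Cre Stat3f/f tumours and 1039 to 1584 CPM in WT tumours. Of 10 dendritic cell markers tested, 9 were positive and 3 called higher, with sums of 331 to 457 CPM in Alb-Cre Stat3f/f tumours and 295 to 331 CPM in WT tumours. A large part of that sum was Fscn1, the 1 negative marker. It averaged 165 CPM of a mean sum of 389 CPM in Alb-Cre Stat3f/f tumours, and 182 CPM of 309.8 CPM in WT tumours. Monocyte markers were positive in 3 of 5, with 2 called higher. These were Ly6c2 at 1.77 ± 0.30 and Ccr2 at 1.29 ± 0.25 on the log2 scale (edgeR Benjamini-Hochberg adjusted p = 0.00281 and 0.0143). The monocyte sums were 963 to 1185 CPM in Alb-Cre Stat3f/f tumours and 1001 to 1677 CPM in WT tumours. They were lower on average in Alb-Cre Stat3f/f tumours (1070.3 CPM against 1222 CPM). Most of that sum was Fn1, at 762 CPM on average in Alb-Cre Stat3f/f tumours and 979 CPM in WT tumours (log2 fold change -0.36 ± 0.14, edgeR Benjamini-Hochberg adjusted p = 0.158). T cell markers were positive in 5 of 5 with 1 called, at 29.4 to 55.9 CPM summed in Alb-Cre Stat3f/f tumours and 8.98 to 27.8 CPM in WT tumours. Tumour epithelium markers were negative in 5 of 5 with 1 called lower, at 1253 to 1740.3 CPM in Alb-Cre Stat3f/f tumours and 1669.6 to 2146 CPM in WT tumours. Their part in the class II difference was not tested beyond the ratios to Ptprc, C1qb and Irf8.

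Endothelial markers were positive in 4 of 4 with 0 called, fibroblast markers in 5 of 5 with 1 called higher, and acinar markers in 14 of 14 tested with 0 called. Which cells held the class II RNA was not measured, since whole sections were read.

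**Figure D4:**
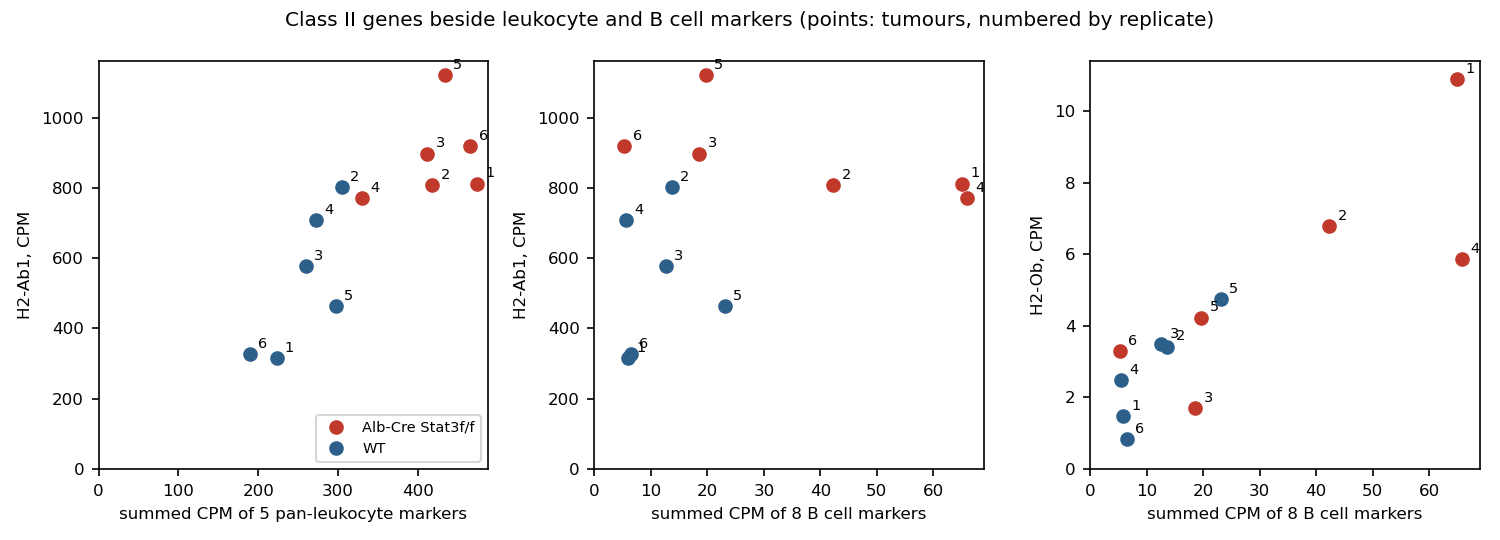
Each point is 1 tumour, numbered by replicate: H2-Ab1 CPM against the summed CPM of 5 pan-leukocyte markers and of 8 B cell markers, and H2-Ob CPM against those B cell markers. The pan-leukocyte sums do not overlap between genotypes (330.2 to 474 CPM in Alb-Cre Stat3f/f tumours, 189.9 to 305 CPM in WT tumours), and Alb-Cre Stat3f/f 1, 2 and 4 are highest for both the B cell markers and H2-Ob.

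Among tumours of 1 genotype, the members followed H2-Ab1 to different degrees. Over the 6 WT tumours log2 CPM of Cd74 had Pearson r = 0.992 with H2-Ab1 (exact permutation p = 0.00278, adjusted p = 0.0167; Spearman rho 0.943, p = 0.0167, adjusted p = 0.0444; r = 0.986 without the 2 tumours farthest from the median). Over the 6 Alb-Cre Stat3f/f tumours Cd74 had r = 0.720 (exact permutation p = 0.107, adjusted p = 0.171; rho 0.943, p = 0.0167, adjusted p = 0.0444; r = 0.708 without those 2). H2-Eb1 followed H2-Ab1 in both, with r = 0.865 in Alb-Cre Stat3f/f tumours (exact permutation p = 0.00833, adjusted p = 0.0367; rho 1, p = 0.00278, adjusted p = 0.0222; 0.923 without 2) and r = 0.992 in WT tumours (exact permutation p = 0.00139, adjusted p = 0.0167; rho 1, p = 0.00278, adjusted p = 0.0222; 0.996 without 2). For H2-DMa, r was 0.417 in Alb-Cre Stat3f/f tumours (exact permutation adjusted p = 0.491, 0.888 without 2). In WT tumours it was 0.917 (exact permutation adjusted p = 0.0367, 0.675 without 2). For H2-DMb1, r was 0.751 in Alb-Cre Stat3f/f tumours (exact permutation adjusted p = 0.136, 0.289 without 2). In WT tumours it was 0.931 (exact permutation adjusted p = 0.0167, 0.994 without 2). Adjustment was over 24 relations.

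H2-Aa, the partner of H2-Ab1, was looser. Its r was 0.322 in Alb-Cre Stat3f/f tumours (exact permutation p = 0.528, adjusted p = 0.614; rho 0.257, p = 0.658; 0.717 without 2) and 0.927 in WT tumours (exact permutation p = 0.00972, adjusted p = 0.0367; rho 0.829, p = 0.0583, adjusted p = 0.108; 0.645 without 2, so that it rests partly on those). Ciita had r = 0.553 in Alb-Cre Stat3f/f tumours (exact permutation p = 0.253, adjusted p = 0.357; rho 0.657, p = 0.175; -0.0339 without 2) and 0.737 in WT tumours (exact permutation p = 0.0556, adjusted p = 0.105; rho 0.829, p = 0.0583; 0.968 without 2). Neither passed. Ptprc had r = 0.227 in Alb-Cre Stat3f/f tumours (exact permutation p = 0.685, adjusted p = 0.714; rho 0.600, p = 0.242; 0.560 without 2) and 0.933 in WT tumours (exact permutation p = 0.0125, adjusted p = 0.0367; rho 0.943, p = 0.0167, adjusted p = 0.0444; 0.775 without 2). C1qb had r = 0.763 in Alb-Cre Stat3f/f tumours (exact permutation adjusted p = 0.105, 0.914 without 2) and 0.985 in WT tumours (adjusted p = 0.0167, 0.987 without 2). Its rho was 0.943 in each genotype (exact permutation adjusted p = 0.0444). Irf8 had r = 0.309 in Alb-Cre Stat3f/f tumours (exact permutation adjusted p = 0.614, rho 0.486) and 0.964 in WT tumours (adjusted p = 0.0367, rho 0.943). The difference in r between genotypes was not tested, and the H2-Ab1 range is narrower in Alb-Cre Stat3f/f tumours.

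The acinar score had r = -0.863 with H2-Ab1 in Alb-Cre Stat3f/f tumours (exact permutation p = 0.0556, adjusted p = 0.105; rho -0.600, p = 0.242; -0.389 without 2) and 0.00796 in WT tumours (exact permutation p = 0.992; rho -0.257, p = 0.658; -0.904 without 2). Neither relation passed, and both moved strongly with the 2 tumours left out.

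Over the 12 tumours, with each genotype's mean removed, other genes were ranked by their likeness to the mean of H2-Aa, H2-Ab1, H2-Eb1 and Cd74, among 10281 with at least 5 CPM. The most alike included B2m, the light chain of class I molecules (r = 0.934), the interferon-induced GTPase Igtp (0.926), the chemokine Cxcl9 (0.924), the DNase Dnase1l3 (0.913), Ppfia4 (0.913), the interferon-induced GTPase Iigp1 (0.907) and Lst1 (0.901). These r values rank genes over shared libraries and carry no test. The WT tumours, which spread more widely for the chains and Cd74, weigh more in them. Among the members outside that mean, r was 0.879 for H2-DMa, 0.877 for H2-DMb1, 0.754 for Ciita, 0.377 for H2-Oa and 0.331 for H2-Ob. The rare H2-O chains therefore had the lowest r of these members. They had few counts per tumour, 7 to 28 for H2-Oa and 6 to 62 for H2-Ob. How far counting error lowered their r was not tested.

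Of the factors that bind class II promoters (8 genes: Rfx5, Rfxap, Rfxank, Nfya, Nfyb, Nfyc, Creb1 and Atf1), 7 had a positive fold change and 0 were called in either direction, with a median log2 fold change of 0.06. The 2 with the smallest p were Rfx5, the DNA-binding RFX subunit, at 0.28 ± 0.20, and Nfyc, an NF-Y subunit, at 0.16 ± 0.20 (edgeR Benjamini-Hochberg adjusted p = 0.470 and 0.692). With library totals both turned negative, at -0.16 and -0.21. There were 46.4 H2-Ab1 counts per Rfx5 count in Alb-Cre Stat3f/f tumours and 33.0 in WT tumours, a log2 difference of 0.49 ± 0.31 (exact permutation p = 0.158, adjusted p = 0.465).

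Of the 9 genes from interferon gamma to Ciita, 8 were tested, 5 were positive and 0 called, with a median log2 fold change of 0.20. Ifngr2, a chain of the receptor, had -0.36 ± 0.12 (edgeR Benjamini-Hochberg adjusted p = 0.109). In the other direction, Socs1 had 0.749 ± 0.262 and Irf1 0.575 ± 0.199 (edgeR Benjamini-Hochberg adjusted p = 0.119 and 0.132). Ifng itself had 21 counts in Alb-Cre Stat3f/f tumours and 11 in WT tumours, 2.37 times as many per scaled library (exact binomial 95% bounds 1.09 and 5.44, for counting error alone), and 1 tumour, Alb-Cre Stat3f/f 6, held 14 of the 21.

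Endosomal processing genes held 2 calls among 9 tested, with 8 positive and a median log2 fold change of 0.23. Ctss, the cathepsin that trims the invariant chain, rose: it had 378 to 530.2 CPM in Alb-Cre Stat3f/f tumours and 230.4 to 355 CPM in WT tumours, a log2 fold change of 0.69 ± 0.12 (edgeR Benjamini-Hochberg adjusted p = 0.00308). Ifi30, a thiol reductase that opens disulfide bonds of antigens, rose by 0.67 ± 0.14 on the log2 scale, at 206 ± 22.0 CPM in Alb-Cre Stat3f/f tumours and 129.6 ± 33.1 CPM in WT tumours (SD, n = 6 each; edgeR Benjamini-Hochberg adjusted p = 0.0166). Both lay above every WT tumour in 6 of 6 Alb-Cre Stat3f/f tumours. Over all genes tested, 2.23% were called higher and 1.37% were separated in this way. The Ifi30 call was lost without Alb-Cre Stat3f/f 1 (log2 fold change 0.64, edgeR Benjamini-Hochberg adjusted p = 0.0504), without the acinar-rich tumours (0.87, adjusted p = 0.0750), with the acinar covariate (0.61, adjusted p = 0.0534) and with the block (0.70, adjusted p = 0.0509). With library totals the fold changes of Ifi30 and Ctss were both 0.29 and neither passed (edgeR Benjamini-Hochberg adjusted p = 0.339 and 0.356). The log2 ratio of Ctss to its substrate Cd74 differed by -0.03 ± 0.17 (exact permutation p = 0.881, adjusted p = 0.946).

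Of 8 partners of class II and Cd74, 7 were tested, 5 were positive and 0 called, with a median log2 fold change of 0.18. Cd4, the co-receptor that binds class II, had 7.08 ± 2.15 CPM in Alb-Cre Stat3f/f tumours and 3.52 ± 2.03 CPM in WT tumours (SD, n = 6 each), a log2 fold change of 1.02 ± 0.35 (edgeR Benjamini-Hochberg adjusted p = 0.109). Cd40, a costimulatory receptor of antigen-presenting cells, had a log2 fold change of 0.93 ± 0.33 (edgeR Benjamini-Hochberg adjusted p = 0.127). Mif and Cd44 were negative, at -0.332 ± 0.125 and -0.293 ± 0.125 (edgeR Benjamini-Hochberg adjusted p = 0.147 and 0.201). Summed over the list, the mean level was 613 CPM in Alb-Cre Stat3f/f tumours and 738 CPM in WT tumours. Most of that sum was Cd44, at 526 CPM on average in Alb-Cre Stat3f/f tumours and 645 CPM in WT tumours. None of the 5 positive genes averaged above 7.08 CPM in either genotype, so the sum says little about them.

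**Figure D5:**
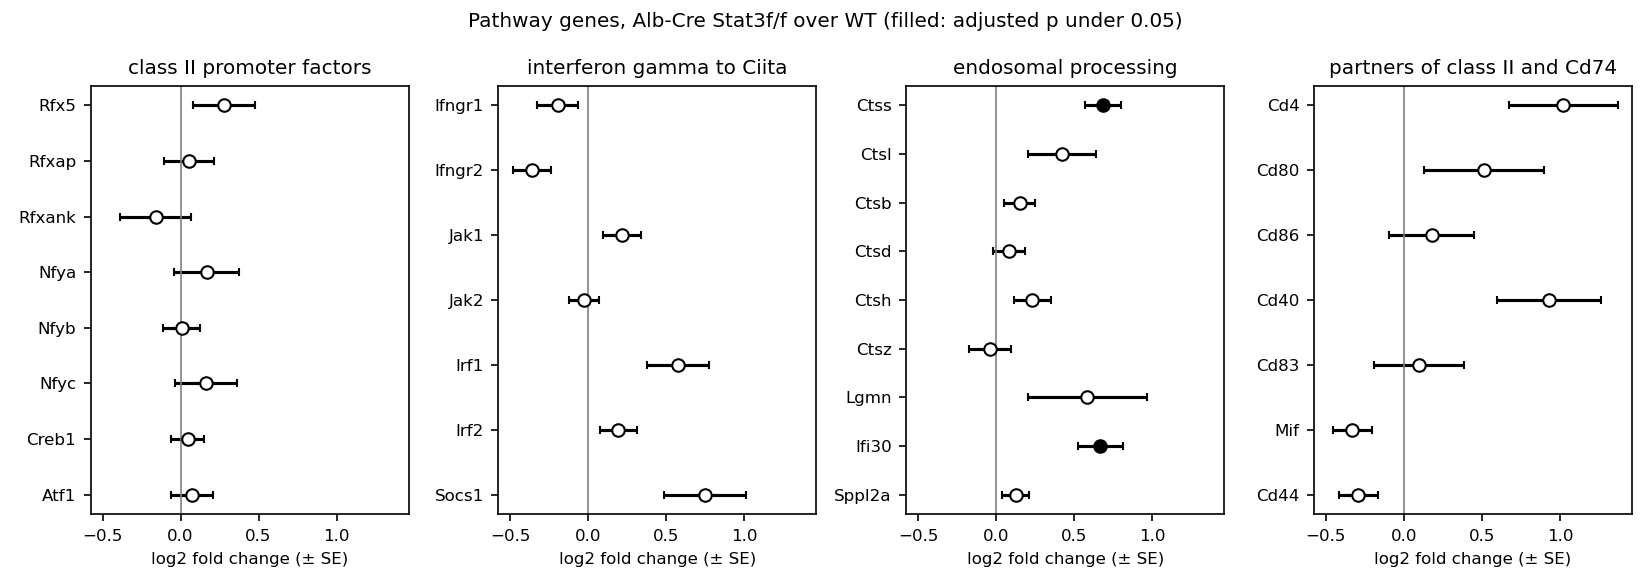
Log2 fold change with its SE, Alb-Cre Stat3f/f over WT, of tested genes of 4 pathway lists, with filled points for genes past the edgeR test. Ctss and Ifi30 are the filled points, at 0.69 and 0.67, and the promoter factors lie close to 0, with a median of 0.06.

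In the genome, 8 of the members sit in a 224 kb stretch of chromosome 17 (34092340 to 34316674, GRCm38). Of 20 annotated genes there 13 code for proteins, and 5 tested ones are not members. Of these 5, 3 rose, and all 3 serve class I presentation: Psmb9 by 1.41 ± 0.25, Tap1 by 1.12 ± 0.23 and Psmb8 by 1.01 ± 0.21 on the log2 scale (edgeR Benjamini-Hochberg adjusted p = 0.0126, 0.0220 and 0.0200), each above every WT tumour in 6 of 6. Among all genes tested, 2.23% were called higher and 1.37% were separated in this way. The neighbours were added once their values had been seen, so their count is a description only. Psmb9 had 235 ± 51.9 CPM in Alb-Cre Stat3f/f tumours and 88.3 ± 30.0 CPM in WT tumours (SD, n = 6 each). Tap2 had 1.56 ± 0.57 (edgeR Benjamini-Hochberg adjusted p = 0.171), and Brd2 is given with H2-DMa. Without the acinar-rich tumours the 3 calls were lost while the log2 fold changes were larger, at 1.64, 1.47 and 1.34 for Psmb9, Tap1 and Psmb8 (edgeR Benjamini-Hochberg adjusted p = 0.205, 0.162 and 0.153). With the block they were lost too, at 1.45, 1.15 and 1.04 (adjusted p = 0.111, 0.0958 and 0.0650). Library totals ended the calls of Tap1 (0.74, adjusted p = 0.0947) and Psmb8 (0.65, adjusted p = 0.118). That of Tap1 was also lost with the acinar covariate (0.0763), without WT 3 (0.0553) and without Alb-Cre Stat3f/f 3 (0.0552), and that of Psmb8 without Alb-Cre Stat3f/f 2 (0.0508).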

How the data were processed

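The authors deposited raw counts for each gene symbol, as whole numbers without normalisation. Per the labels' protocols, RNA came from FFPE sections (RNeasy FFPE) and libraries from the QuantSeq 3' FWD kit. The submitters' processing notes name STAR and mm10. The sources used here do not give versions, annotation, counting tool or strand setting. Molecular identifiers are not mentioned, so intervals cover counting error only. The 26 rows that carry a date number instead of a symbol were left out (0.0690 to 0.166% of counts).

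Counts of 12 tumours were fitted with edgeR 4.0.16 in R 4.3.3: filterByExpr by genotype (minimum count 10, minimum total 15), TMM, robust quasi-likelihood, two-sided, genotype as the sole term, and Benjamini-Hochberg adjustment over 12856 genes at 0.05. DESeq2 1.42.0 was an alternative. Ratios were log2 of counts plus 0.5, compared by exact permutation over 924 relabellings, whose smallest p is 0.0022. Correlations used log2 CPM (prior count 2) and all 720 orders. The scripts were tested on simulated counts. Positions come from GENCODE M21. No 2 libraries of 1 genotype were repeats (chi-square per gene of at least 12.9). The labels do not say whether replicate numbers pair tumours, and no pairing was used in the main fit.

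The members and lists were chosen with earlier results of these data known. All 10 members were named, and in each pathway list up to 4 genes past 0.05 or, with none, the 2 with the smallest p; 2 genes that this rule or the ranking by likeness picked are not reported here. The neighbouring genes on chromosome 17 were added once their values had been seen. Other marker lists are given as counts. Socs1, Irf1, Mif, Cd44, Ly6c2, Ccr2, Fn1 and Fscn1 were named outside this rule, once their values had been seen.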

Additional observations from a re-analysis of the deposited data

How the results depend on the processing

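The fold changes of the 9 tested members were positive under every alternative; at least 10 CPM in 6 tumours left 7 of them to test, and without a filter 9 of 10 were positive. The calls were less stable. The 1 member called became 7 with DESeq2, 0 with library totals (chosen after seeing the data), 0 without the acinar-rich tumours and 0 with the replicate block, and 1 to 6 when 1 tumour was left out. By CPM of library totals 0 members separated the genotypes. Over all genes the 287 called higher became 618 with DESeq2, 32 with library totals, 145 with the acinar covariate, 83 without the acinar-rich tumours, 145 with the block and 141 to 471 without 1 tumour. The 96 called lower became 288 with DESeq2, 133 with library totals, 38 with the covariate, 14 without the acinar-rich tumours, 44 with the block and 37 to 222 without 1 tumour. With fewer tumours a fit has fewer degrees of freedom; the cause of the other moves was not tested. Same-numbered tumours had deviations correlated at -0.513 to 0.127, and the numbers share no stated origin.

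Several differences near 0 changed sign. Without the acinar-rich tumours the log2 ratio difference was 0.11 for H2-DMb1 to H2-Ab1 (-0.26 as reported), -0.107 for H2-Oa to H2-DMa (0.16) and -0.271 for H2-Ob to H2-DMb1 (0.41), and with 5 counts added H2-Oa to H2-DMa gave -0.0527. When 1 tumour was left out, the difference ran from -0.000418 to 0.122 for H2-Aa to H2-Ab1, -0.0466 to 0.403 for H2-Oa to H2-DMa, -0.0646 to 0.192 for Ciita to H2-Ab1, -0.0876 to 0.0715 for H2-Ab1 to Ptprc, -0.0521 to 0.0937 for H2-Ab1 to Irf8, -0.0887 to 0.0460 for H2-Ab1 to H2-K1 and -0.138 to 0.0875 for Ctss to Cd74. Of the 15 ratios 0 passed under any of these alternatives. With library totals Rfx5 was -0.162, Nfyc -0.212 and Brd2 -0.403; Brd2 was -0.0151 without the acinar-rich tumours and -0.0571 to 0.0716 without 1 tumour. The causes were not tested.

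Depth limits the rare members most: H2-DMb2 had at most 6 counts in a tumour, H2-Oa 7 to 28 and H2-Ob 6 to 62. Without the acinar-rich tumours the 21 relabellings give no p under 0.048.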
